A study of Homo sapiens with 6 samples.

Results

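RNA-seq libraries of SKNMC cells carrying V5-tagged NFIB without its intrinsically disordered region (NFIB-ΔIDR) were compared with those of SKNMC cells carrying the empty expression vector (EV). The 4 libraries of these groups, 2 each, were taken by their labels out of the 6 of the series. The other 2 libraries came from cells carrying V5-tagged wild-type NFIB (NFIB-WT) and entered the fit of all 6. SKNMC is an established line of Ewing sarcoma, a tumour driven by the EWS-FLI1 fusion protein, and all 6 libraries share this fusion and the endogenous NFIB gene. The constructs were delivered by lentivirus, and infected cells were selected with puromycin. The cells received no other treatment. The coding sequence of NFIB was cloned from cDNA of a small-cell lung cancer line, and the mutant lacks the disordered C-terminal region. Counts for NFIB therefore add the endogenous transcript to that of the construct.

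NFIB is 1 of the 4 nuclear factor I proteins, which bind DNA through a conserved N-terminal domain and regulate transcription through more variable C-terminal parts. The family binds a palindrome made of a pair of TTGGC half-sites and, more weakly, single half-sites. NFIB is known for roles in lung and brain development, in stem cells of skin and in the spread of small-cell lung cancer. Disordered regions of transcription factors have no fixed fold and make weak contacts with other proteins. The comparison asks which transcripts differ from control cells when NFIB without its disordered part is added to cells that keep their endogenous NFIB.

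The promoters of 5 genes that the results turn on are printed for their NFI half-sites: an interferon-induced gene and a growth factor binder that fell, a chemokine that rose, and an early and a late enzyme of cholesterol synthesis that fell. Capitals mark TTGGC and TGGCA on either strand, which overlap where TTGGCA is read. The sequences come from RefSeq (GRCh38.p14) and run from 250 bases before to 50 bases after the annotated start.
IFI44L promoter, chr1:78620198-78620497, plus strand: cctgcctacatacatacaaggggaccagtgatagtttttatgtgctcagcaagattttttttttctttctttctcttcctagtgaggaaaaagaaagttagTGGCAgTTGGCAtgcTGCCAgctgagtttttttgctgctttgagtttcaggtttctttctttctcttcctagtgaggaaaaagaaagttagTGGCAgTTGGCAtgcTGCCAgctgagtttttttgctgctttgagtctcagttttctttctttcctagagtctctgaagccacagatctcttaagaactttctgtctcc
IGFBP5 promoter, chr2:216695500-216695799, minus strand: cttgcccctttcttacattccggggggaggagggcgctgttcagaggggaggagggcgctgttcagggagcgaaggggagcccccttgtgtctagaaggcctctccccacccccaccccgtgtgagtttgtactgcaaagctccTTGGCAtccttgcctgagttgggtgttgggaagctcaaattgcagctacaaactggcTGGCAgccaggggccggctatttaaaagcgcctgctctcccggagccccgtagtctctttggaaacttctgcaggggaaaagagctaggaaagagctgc
CXCL10 promoter, chr4:76023448-76023747, minus strand: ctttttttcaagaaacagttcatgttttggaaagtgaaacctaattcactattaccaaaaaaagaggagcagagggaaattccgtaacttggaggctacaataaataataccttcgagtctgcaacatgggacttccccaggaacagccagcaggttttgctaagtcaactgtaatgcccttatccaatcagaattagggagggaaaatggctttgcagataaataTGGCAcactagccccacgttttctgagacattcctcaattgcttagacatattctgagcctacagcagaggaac
HMGCS1 promoter, chr5:43313363-43313662, minus strand: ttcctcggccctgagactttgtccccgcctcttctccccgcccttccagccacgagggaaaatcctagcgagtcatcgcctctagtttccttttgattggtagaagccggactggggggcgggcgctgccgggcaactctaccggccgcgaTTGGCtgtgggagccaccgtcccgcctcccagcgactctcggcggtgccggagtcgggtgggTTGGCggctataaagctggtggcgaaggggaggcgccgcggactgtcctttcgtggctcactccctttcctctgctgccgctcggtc
DHCR7 promoter, chr11:71448344-71448643, minus strand: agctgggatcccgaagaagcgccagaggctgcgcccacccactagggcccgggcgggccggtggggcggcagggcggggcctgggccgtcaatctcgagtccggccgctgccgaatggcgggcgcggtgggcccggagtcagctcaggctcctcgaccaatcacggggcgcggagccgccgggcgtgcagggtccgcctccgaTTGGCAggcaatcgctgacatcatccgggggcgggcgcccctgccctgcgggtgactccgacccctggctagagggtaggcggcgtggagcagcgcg
The IFI44L promoter held 2 copies of TTGGCNNNNNGCCA, which is the NFI palindrome without its last letter, inside a repeated block. This string was found in 105 of 27305 promoters (0.385%), and in 1 of the 40 promoters of genes that fell in the 6-library fit described next. The full palindrome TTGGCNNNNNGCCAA was in 9 of 27305 promoters (0.0330%). The half-site TTGGC was in 17 of 30 promoters of genes that rose (56.7%) and in 22 of 40 of genes that fell (55.0%), next to 47.7% of the 10596 tested genes with a promoter in the table. The half-site TGGCA was in 15 of 30 and in 17 of 40, next to 39.5% of tested genes. Among cholesterol genes, TTGGC was in 13 of 18 promoters (72.2%), and in 12 of the 18 (66.7%) it was read as ATTGGC, which begins with an inverted CCAAT box and which 19.7% of tested promoters held. ATTGGC was also in 11 of 30 promoters of genes that rose (36.7%) and in 14 of 40 of genes that fell (35.0%). These matches are descriptions of letters and were not tested.

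The libraries held 7375583 and 8465572 counts with EV, 7312664 and 6759708 with NFIB-ΔIDR, and 6664231 and 7829908 with NFIB-WT. Levels are given as CPM, that is counts scaled to a common library size after normalization by the trimmed mean of M values (TMM), where 1 CPM corresponded to 6.67 to 8.37 counts. The labels name 2 replicates per group and the study describes biological duplicates, so p values measure the spread between 2 libraries. The SD of the log2 difference within a pair was 0.281 with EV, 0.279 with NFIB-ΔIDR and 0.376 with NFIB-WT. The comparison was fitted with all 6 libraries, where the wider NFIB-WT pair enters the estimate of the spread, and with the 4 libraries of EV and NFIB-ΔIDR alone. Adjusted p values are from edgeR's quasi-likelihood test with Benjamini-Hochberg adjustment over all genes of a fit, and a gene with an adjusted p under 0.05 is said to have risen or fallen, in the 6-library fit unless the other is named.

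With all 6 libraries, 40 of 13501 genes were higher with NFIB-ΔIDR than with EV (0.296% of genes tested) and 48 were lower (0.356%), 88 in all (0.652%). In the fit of the 4 libraries alone, 910 of 13287 genes were higher (6.85%) and 973 were lower (7.32%), 1883 in all (14.2%). The 88 genes were all among the 1883. Leaving out 1 EV or NFIB-ΔIDR library left 2 or 3 genes higher and 2 lower in the 6-library fit, and leaving out 1 NFIB-WT library gave 865 or 892 higher and 977 or 961 lower, since the NFIB-WT pair then no longer entered the estimate of the spread. In the 4-library fit, leaving out 1 library gave 438 to 580 higher and 437 to 706 lower. The common biological coefficient of variation was 0.0776 in the first fit and 0.0358 in the second. In the second, the spread of all genes of like abundance was taken as equal, so a gene whose 2 libraries differ strongly can pass, and the smallest change called was 0.13 on the log2 scale. With library totals in place of TMM the split of the 4-library calls was 1041 higher and 743 lower, 58.4% higher rather than 48.3%. DESeq2 gave 31 higher and 61 lower in 6 libraries, and 153 and 276 in 4. In 6 libraries it called 26 of the 40 genes higher and 43 of the 48 lower. Among the rest, it gave no adjusted p for MMP1, ACTA2, TDO2, ESRP1, CFAP47, PIK3CG, PPP1R3A, LRRC37A11P and PCDHB19P. ALDH1A1, DRAM1, TBX3, NAV3, PCLO, ITGB8, GLDC, CDK6, ZNF709 and CPNE8 had adjusted p values above 0.05 in DESeq2. Of the 40 genes, 38 rose at least 1.5-fold and 21 at least 2-fold, and of the 48, 37 fell by at least 1.5-fold and 12 by at least 2-fold.

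**Figure D1:**
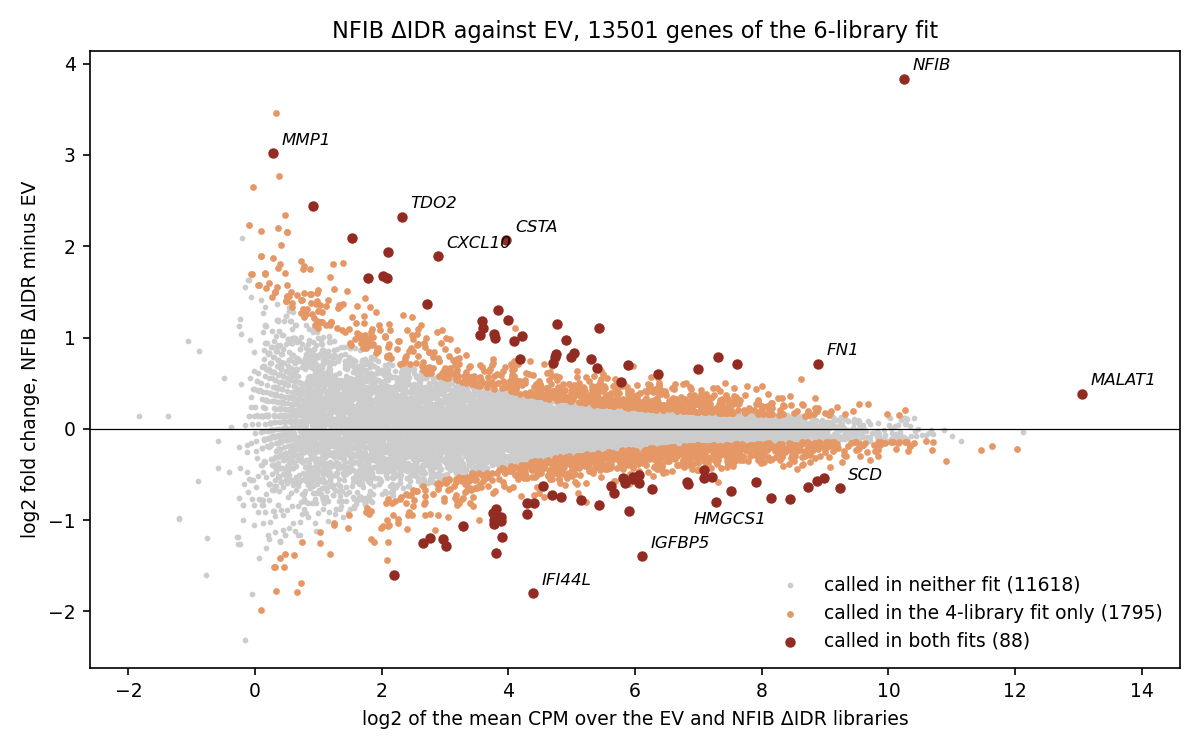
Log2 fold change of NFIB-ΔIDR against EV (vertical axis) against the log2 mean CPM of these 4 libraries (horizontal axis) for 13501 genes. Each point is a gene, coloured by its call: 88 genes passed in both fits, 1795 in the 4-library fit alone and 11618 in neither, and among the labelled genes NFIB has the highest and IFI44L the lowest change that passed in both.

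NFIB itself was at 175.7 and 144.6 CPM in the EV libraries, 2227 and 2332 CPM with NFIB-ΔIDR, and 969 and 1051 CPM with NFIB-WT. Each construct library lay far above both EV libraries, which matched the labels, and the 3 groups did not overlap. The mean rose from 160.1 ± 22.0 CPM (SD, n = 2) to 2280 ± 74.2 CPM with NFIB-ΔIDR (log2 change 3.83 ± 0.11 SE, edgeR adjusted p = 1.92e-08). NFIB lies at chr9:14081842-14398982 on the minus strand of hg19. The level with NFIB-ΔIDR was also above that with NFIB-WT (log2 difference 1.17, SE 0.10, edgeR adjusted p = 0.000191). The constructs thus differed in NFIB RNA as well as in sequence. RNA level and sequence cannot be told apart in any difference between the constructs. Protein was not measured in these libraries, and the study shows a V5 blot of both constructs. Of the other family members, NFIC rose in the 4-library fit alone, from 18.8 to 24.4 CPM (log2 change 0.38, edgeR adjusted p = 0.0301 in that fit). NFIX had a log2 fold change of 0.37 and NFIA of -0.16, and neither passed in either fit.

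**Figure D2:**
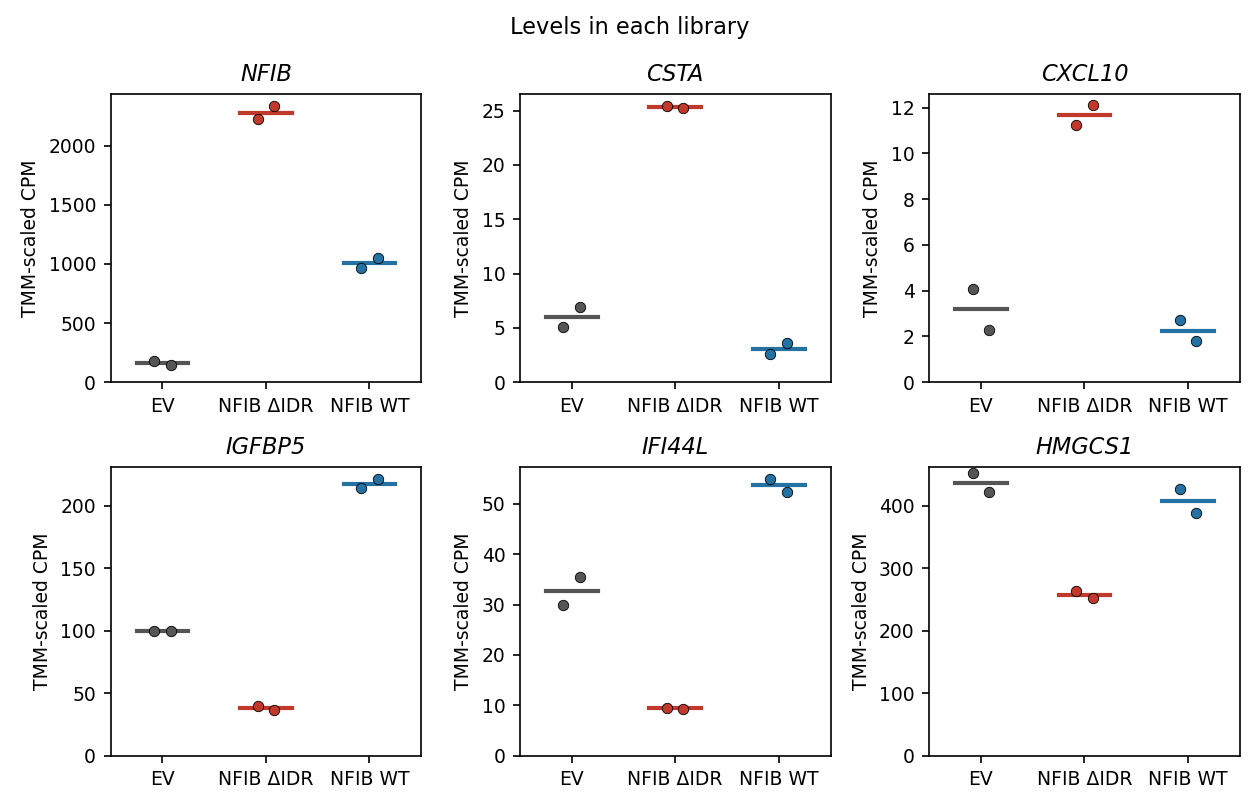
TMM-scaled CPM (vertical axis, from 0) of 6 genes in each library of EV, NFIB-ΔIDR and NFIB-WT. Points are libraries and bars are means of 2. CSTA and CXCL10 are highest with NFIB-ΔIDR, IGFBP5, IFI44L and HMGCS1 are lowest with it, and the points of NFIB-ΔIDR overlap those of no other group.

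CSTA and CXCL10 rose with NFIB-ΔIDR, and IGFBP5 and IFI44L fell. CSTA encodes cystatin A, an inhibitor of cysteine cathepsins that is abundant in squamous epithelium. Its level was 5.05 and 6.93 CPM with EV, 25.4 and 25.2 CPM with NFIB-ΔIDR, and 2.55 and 3.61 CPM with NFIB-WT. The NFIB-ΔIDR libraries lay above all others and the NFIB-WT libraries lay below both EV libraries. The log2 fold change with NFIB-ΔIDR was 2.07 (SE 0.18, adjusted p = 0.000681), and the log2 difference from NFIB-WT was 3.02 (adjusted p = 6.29e-05). CSTA lies at chr3:122044095-122060816 of hg19.

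CXCL10, a chemokine that draws T cells and is induced by interferon, was at 4.09 and 2.27 CPM with EV, 11.2 and 12.1 CPM with NFIB-ΔIDR, and 2.70 and 1.80 CPM with NFIB-WT. The EV and NFIB-WT libraries overlapped and the NFIB-ΔIDR libraries lay above both (log2 change 1.89 ± 0.26 SE, edgeR adjusted p = 0.0132). IGFBP5, a secreted binder of insulin-like growth factors, was at 100 and 99.8 CPM with EV, 39.5 and 36.3 CPM with NFIB-ΔIDR, and 213.9 and 221.8 CPM with NFIB-WT. The groups lay apart, with the EV libraries between those of the constructs. IGFBP5 fell to 37.9 ± 2.26 CPM with NFIB-ΔIDR (log2 change -1.40 ± 0.10 SE, edgeR adjusted p = 0.000147). IFI44L, an interferon-induced gene, was at 29.9 and 35.5 CPM with EV, 9.47 and 9.30 CPM with NFIB-ΔIDR, and 55.0 and 52.4 CPM with NFIB-WT. It had the lowest log2 fold change of the genes that fell, -1.80 (SE 0.14, adjusted p = 0.000401), and its promoter is the one with the near-palindromes printed above. NFIB, CSTA, IGFBP5 and IFI44L were the 4 of the 88 genes that passed under each of 17 alternative settings of the 6-library fit. CXCL10 passed under 13 of them and not when an EV or NFIB-ΔIDR library was left out.

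Examples of the genes that rose follow by what they encode. MMP1, a collagenase, was at 0.273 and 0.239 CPM with EV and at 2.44 and 1.92 CPM with NFIB-ΔIDR. These are 2 and 2 counts against 18 and 13, and the NFIB-WT libraries, at 1.65 and 1.29 CPM, lay between (log2 change 3.02 ± 0.53 SE, edgeR adjusted p = 0.0332). ACTA2, smooth muscle actin, rose from 1.76 ± 0.556 CPM to 6.85 ± 0.123 CPM (SD, n = 2, log2 change 1.93). FN1, which encodes fibronectin, was one of the most abundant genes that rose, at 347.1 and 370.8 CPM with EV and 568 and 609 CPM with NFIB-ΔIDR (log2 change 0.71 ± 0.09 SE, edgeR adjusted p = 0.0105). TMSB4X, which binds actin monomers and has many near-identical pseudogene copies, had a log2 fold change of 1.30. SLIT2, a guidance ligand, had 0.60. CFAP47 and DNAH10, both of the motile cilium, had log2 fold changes of 2.09 and 1.10.

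TDO2, which opens the ring of tryptophan as the first step of its breakdown, was at 1.23 and 2.03 CPM with EV and 8.12 and 8.56 CPM with NFIB-ΔIDR (log2 change 2.32 ± 0.32 SE, edgeR adjusted p = 0.0132). The NFIB-WT libraries, at 2.85 and 1.42 CPM, overlapped those of EV. PIK3CG, the catalytic subunit of phosphoinositide 3-kinase gamma, and PPP1R3A, which brings protein phosphatase 1 to glycogen, both had log2 fold changes of 1.65. ALDH1A1, which makes retinoic acid, had 0.77, and GALM, an enzyme of galactose use, had 1.02. FTH1, the heavy chain of ferritin, rose from 116.3 ± 6.93 CPM to 201.2 ± 7.27 CPM (SD, n = 2, log2 change 0.79), and ATP6V0A1, a subunit of the proton pump of lysosomes, had 0.82. DRAM1, a lysosomal membrane protein, and TFEC, of the family of lysosomal gene regulators, had 1.03 and 0.97. LY96, the partner of the endotoxin receptor, had 0.65.

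Among regulators, TP63, a p53 relative that directs epithelial stem cells, was at 16.5 and 17.3 CPM with EV, 34.9 and 40.2 CPM with NFIB-ΔIDR, and 18.0 and 17.8 CPM with NFIB-WT. It rose by 1.15 on the log2 scale (adjusted p = 0.00489), and the NFIB-WT libraries lay beside those of EV. ESRP1, a splicing factor of epithelial cells, was at 4.64 and 2.75 CPM with EV and 10.0 and 8.86 CPM with NFIB-ΔIDR (log2 change 1.37, edgeR adjusted p = 0.0376). TBX3, a factor of limb development, stood just inside the threshold (log2 change 0.51, edgeR adjusted p = 0.0489), and SEC61G, a subunit of the protein channel of the endoplasmic reticulum, just outside (0.68, adjusted p = 0.0503). The nuclear long noncoding RNAs MALAT1 and NEAT1 had log2 fold changes of 0.38 and 1.18. MALAT1 was at 7523 and 7296 CPM with EV and 9876 and 9456 CPM with NFIB-ΔIDR. MFAP1, a splicing protein, was at 154.5 and 142.6 CPM with EV and 284.7 and 201.9 CPM with NFIB-ΔIDR. The pseudogenes LRRC37A11P and PCDHB19P and the gene PRAMEF1, all with near-identical relatives, also rose, and their reads may belong to those relatives.

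**Figure D3:**
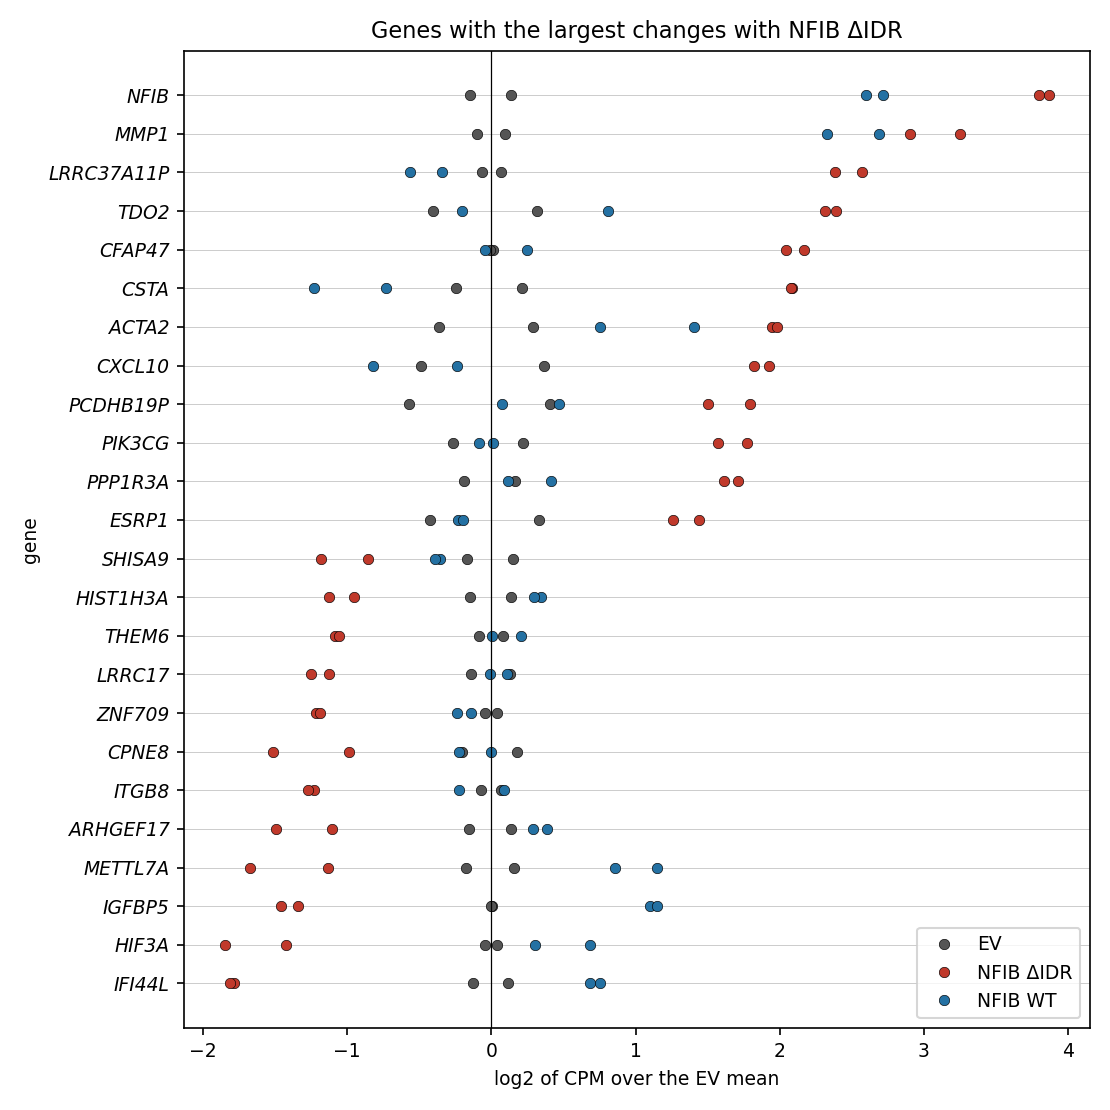
Log2 of CPM over the EV mean (horizontal axis) in each of 6 libraries for the 24 genes with the largest changes that passed in both fits (12 in each direction, vertical axis). Each point is a library. Genes were chosen to have EV and NFIB-ΔIDR libraries that do not overlap, so the points of these groups lie apart for each gene. Those of NFIB-WT lie beyond EV, on the side away from NFIB-ΔIDR, for CSTA, LRRC37A11P, IGFBP5, IFI44L, HIF3A, METTL7A, ARHGEF17 and HIST1H3A.

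The genes that fell had a higher median level than those that rose, at 50.1 CPM over the 4 libraries next to 18.4 CPM, with 24.1 CPM over all genes tested. The median GC content was 48.6% for those that fell, 42.7% for those that rose and 46.6% for all genes. Whether GC content or abundance has a part in the calls was not tested beyond a correction for GC content and length, under which all 88 passed. The libraries of EV and NFIB-ΔIDR did not overlap for any of the 88 genes, nor for 7201 of all 13501 genes (26.2% of genes higher, 27.1% lower, 53.3% in all).

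HIF3A, a member of the hypoxia-inducible factor family, was at 7.10 and 6.69 CPM with EV and 2.57 and 1.92 CPM with NFIB-ΔIDR (log2 change -1.60 ± 0.27 SE, edgeR adjusted p = 0.0271). METTL7A, a methyltransferase-like protein of lipid droplets, was at 22.5 and 17.9 CPM with EV, 9.20 and 6.35 CPM with NFIB-ΔIDR, and 44.8 and 36.6 CPM with NFIB-WT (log2 change -1.36, edgeR adjusted p = 0.0201). In both genes the NFIB-WT libraries lay above those of EV. ITGB8, an integrin subunit that releases latent TGF-beta, fell from 8.89 ± 0.607 CPM to 3.74 ± 0.0690 CPM (SD, n = 2, log2 change -1.25). ARHGEF17 had -1.28. SULF2, which trims heparan sulfate outside the cell, had -0.97.

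BCL2, an inhibitor of apoptosis, had a log2 fold change of -0.81, CDK6, a kinase of the G1 phase, of -0.63, and KIT, the receptor for stem cell factor, of -0.45. KIT was at 153.7 and 159.5 CPM with EV and 111.3 and 117.7 CPM with NFIB-ΔIDR. GLDC, the glycine-cleaving decarboxylase, had -0.88, and the peptide-processing enzymes PCSK5 and PAM had -0.82 and -0.55. CXXC4, which holds back Wnt signalling, had -0.92. The linker histone H1F0 and the core histone HIST1H3A, the second with near-identical copies, had -0.69 and -1.04. LRP8, a receptor for apolipoprotein E and reelin, had -0.60 and GYG2, which primes glycogen synthesis, had -0.54.

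Of the 48 genes that fell, 13 belonged to lists of cholesterol and fatty acid synthesis that hold 37 genes tested. These genes are known to be switched on together by the SREBP transcription factors when sterols are low. SREBPs stay in the endoplasmic reticulum while INSIG proteins bind their escort there. Of 25 cholesterol genes, 9 fell and 0 rose, with a median log2 fold change of -0.45 next to 0.00 over all genes. In the 4-library fit 19 fell (76.0% of the list, next to 7.32% of all genes in that direction). Of 12 fatty acid genes, 4 fell and 0 rose, with a median of -0.49, and in the 4-library fit 9 fell and 1 rose. In 6 libraries, edgeR at an unadjusted p under 0.05 had 0 cholesterol genes and 1 fatty acid gene higher, and DESeq2 called 0 of either list higher and 11 and 5 lower. These lists were chosen with results of these libraries known, so their direction is a description.

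HMGCS1, which makes HMG-CoA, was at 451.8 and 422.1 CPM with EV, 262.7 and 251.7 CPM with NFIB-ΔIDR, and 426.3 and 388.6 CPM with NFIB-WT. The NFIB-ΔIDR libraries lay below the rest and the NFIB-WT and EV libraries overlapped (log2 change -0.76 ± 0.09 SE, edgeR adjusted p = 0.00489). FDPS, FDFT1 and SQLE, which lead from isoprenoids to squalene and its epoxide, had log2 fold changes of -0.52, -0.64 and -0.54. LSS, which closes the sterol rings, was at 54.6 and 55.3 CPM with EV and 33.4 and 28.3 CPM with NFIB-ΔIDR (log2 change -0.83).

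MSMO1 and DHCR7, which act on sterol intermediates, had log2 fold changes of -0.80 and -0.66. DHCR7 was at 95 and 92.6 CPM with EV, 59.0 and 59.9 CPM with NFIB-ΔIDR, and 141.4 and 125.8 CPM with NFIB-WT. INSIG1, the sterol-dependent anchor that is itself an SREBP target, was at 84.6 and 71.6 CPM with EV and 41.7 and 42.1 CPM with NFIB-ΔIDR (log2 change -0.90 ± 0.12 SE, edgeR adjusted p = 0.0105). SREBF2, the gene of the factor that drives this pathway, was at 198.5 and 200.8 CPM with EV and 146.5 and 151.6 CPM with NFIB-ΔIDR (log2 change -0.42, edgeR adjusted p = 0.0511 in 6 libraries and 3.68e-09 in 4). MVK, PMVK, MVD, CYP51A1, TM7SF2 and EBP passed in neither fit, and CYP51A1, at 134.7 and 123.7 CPM with EV and 123.7 and 125.3 CPM with NFIB-ΔIDR, did so at a level well above the filter (log2 change -0.05 ± 0.10 SE).

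In fatty acid synthesis, 3 desaturases and ACSL3 fell. SCD, which makes oleate from stearate, was at 730.4 and 739.6 CPM with EV, 457.6 and 478.9 CPM with NFIB-ΔIDR, and 813.1 and 791.6 CPM with NFIB-WT (log2 change -0.65 ± 0.07 SE, edgeR adjusted p = 0.00529). FADS2 and FADS1, neighbouring genes for desaturases of polyunsaturated fatty acids, had log2 fold changes of -0.75 and -0.58, and ACSL3, which activates fatty acids, had -0.54. ACACA, ACLY, FASN, SREBF1 and ACSS2 fell in the 4-library fit alone. ELOVL5 and ELOVL6 passed in neither fit, and ME1, which makes NADPH, rose in the 4-library fit alone (log2 change 0.38). Summed over the list, cholesterol genes were at 4085 and 3969 CPM with EV, 2783 and 2834 CPM with NFIB-ΔIDR, and 4261 and 3899 CPM with NFIB-WT. The NFIB-WT sums spanned those of EV, and the mean difference between NFIB-ΔIDR and EV was -30.3% of the EV level. In the direct test against NFIB-WT, 14 of the 25 cholesterol genes were lower with NFIB-ΔIDR, as were 8 of the 12 fatty acid genes. Over all genes tested 5.52% were lower. This test uses the same NFIB-ΔIDR libraries as the comparison with EV.

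**Figure D4:**
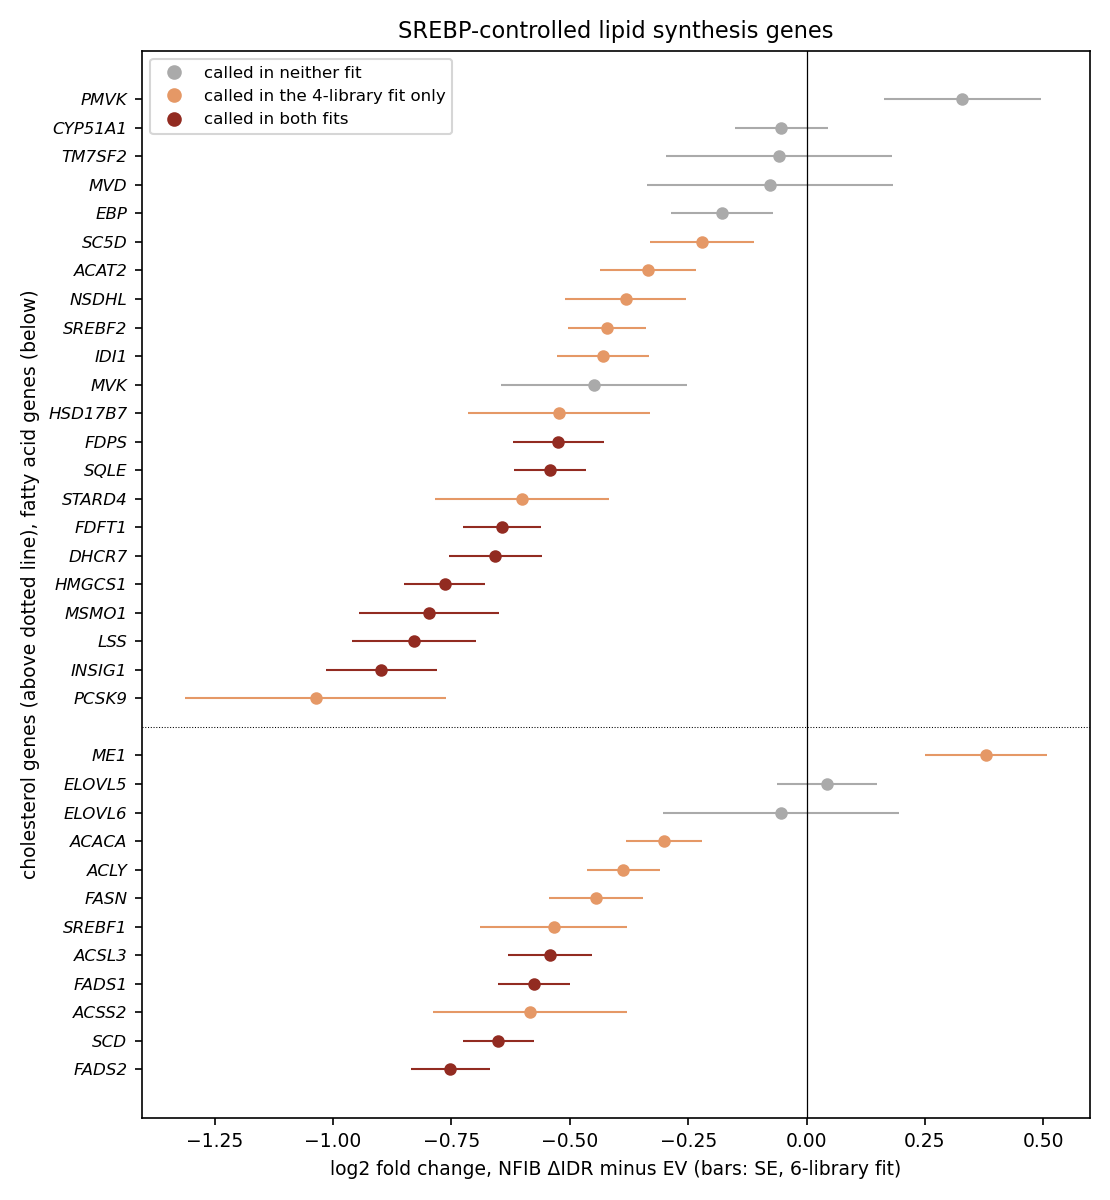
Log2 fold change of NFIB-ΔIDR against EV with its SE in the 6-library fit (horizontal axis) for 22 of the 25 cholesterol and all 12 fatty acid synthesis genes (vertical axis), coloured by the fits in which each passed. All but PMVK lie below 0 among the cholesterol genes drawn, and all but ME1 and ELOVL5 among the fatty acid genes.

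Without 1 EV or NFIB-ΔIDR library the lipid calls of the 6-library fit were lost, as were nearly all its calls over all genes. The loss is therefore not particular to these lists. In these fits the median log2 fold change was -0.55 to -0.43 for cholesterol genes and -0.52 to -0.40 for fatty acid genes. With 1 library left out of the 4-library fit the medians were -0.55 to -0.43 and -0.52 to -0.41. A group of 1 library has no spread of its own, so single calls cannot be judged there.

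In the direct test of NFIB-ΔIDR against NFIB-WT, 701 genes were higher (5.19%) and 745 lower (5.52%), 1446 of 13501 in all (10.7%). Of the 40 genes that rose, 37 were higher than with NFIB-WT as well, the exceptions being MMP1, ACTA2 and DNAH10. Of the 48 that fell, 44 were lower, the exceptions being LHFPL2, CLSTN2, PCSK5 and TMEM119. Both tests use the same NFIB-ΔIDR libraries, so these counts are not independent of the calls. MMP1 had a log2 difference of 0.58 from NFIB-WT (SE 0.37, adjusted p = 0.341) and ACTA2 of 0.86 (adjusted p = 0.0659). Neither difference from NFIB-WT passed. The construct libraries held 10 to 18 counts of MMP1 and 23 to 50 of ACTA2. The difference in ACTA2 had an unadjusted p of 0.00862 in edgeR.

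The fit of EV and NFIB-ΔIDR alone added 1795 genes, 870 higher and 925 lower. Across the 910 and 973 genes of that fit the median log2 fold changes were 0.41 and -0.32. Of the genes that rose in that fit alone with a mean of at least 5 CPM, the largest changes were in DNAH7, an axonemal dynein, the zinc finger gene ZNF560, PKHD1L1, C1orf35, LAMA2, a chain of laminin, and the transporter ABCA10, with log2 fold changes of 1.08 to 1.25. DNAH7 was at 2.59 and 3.35 CPM with EV and 6.22 and 8.12 CPM with NFIB-ΔIDR. C1orf35 was at 13.2 and 8.72 CPM with EV and 31.7 and 14.9 CPM with NFIB-ΔIDR, an adjusted p of 1.52e-11 in 4 libraries and 0.142 in 6. The 2 NFIB-ΔIDR libraries thus differed more from each other than the lower one did from EV. Of the genes that fell in that fit alone, under the same limit of 5 CPM, the largest changes were in PTCHD1, SLITRK4, KCTD15, MEGF6, FAM213B and SOX13, with log2 fold changes of -1.10 to -0.94. PTCHD1, a membrane protein of neurons, was at 9.42 and 10.3 CPM with EV and 5.41 and 3.69 CPM with NFIB-ΔIDR (adjusted p = 0.0532 in 6 libraries). SLITRK4, a synaptic adhesion protein, was at 7.51 and 6.81 CPM and at 2.44 and 4.28 CPM.

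Immune signalling genes moved both ways. Of 31 interferon response genes, CXCL10 rose and IFI44L fell, and the median log2 fold change was 0.26. In the 4-library fit 6 of 30 were higher, among them CXCL10, CXCL11, GBP2, IFITM3 and SAMD9, and IFI44L, IFI44 and PARP14 were lower. Over all genes of that fit 6.85% were higher and 7.32% lower, and these shares apply to each list count of that fit below. IFI44, the neighbour of IFI44L on chromosome 1, was at 69.5 and 66.1 CPM with EV, 53.4 and 53.9 CPM with NFIB-ΔIDR, and 94.6 and 86.2 CPM with NFIB-WT. The pair thus had the same order of groups. ISG15, a ubiquitin-like protein induced by interferon, was at 2.05 and 3.82 CPM with EV and 2.16 and 3.25 CPM with NFIB-ΔIDR. Among 9 chemokine and NF-kappaB genes, CXCL8, CXCL10 and TNFAIP3 rose in the 4-library fit and 0 fell in edgeR, with 1 lower at an unadjusted p under 0.05. DESeq2 in 4 libraries called 0 higher and 0 lower, with an adjusted p for 3 of the genes.

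Of 19 YAP target and contractile genes, ACTA2, TAGLN, TPM1, TPM2 and CALD1 rose in the 4-library fit and AJUBA, CRIM1 and CNN3 fell. CALD1, caldesmon, was at 21.6 and 21.7 CPM with EV and 31.8 and 32.8 CPM with NFIB-ΔIDR (log2 change 0.57, edgeR adjusted p = 0.0547 in 6 libraries). Of the other actin-binding members, CNN2, TPM4 and FLNA passed in neither fit. Of 12 epithelial genes, ESRP1, KRT8, KRT18 and CSTA rose in the 4-library fit and JUP, plakoglobin, fell. KRT8 was at 6.42 and 5.86 CPM with EV, 11.4 and 9.89 CPM with NFIB-ΔIDR, and 3.0 and 4.64 CPM with NFIB-WT. Of 31 epithelial genes in the counts, 19 were too low to test and 3 had no count in these 4 libraries.

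Of 37 genes known to be activated by the fusion, 0 passed in 6 libraries in edgeR or DESeq2, with 4 higher and 6 lower at an unadjusted p under 0.05 in edgeR. In the 4-library fit 5 were higher and 11 lower, next to 6.85% and 7.32% of all genes, with a median log2 fold change of -0.09. RCOR1, a corepressor subunit, was at 343.7 and 353.6 CPM with EV, 278.2 and 271.9 CPM with NFIB-ΔIDR, and 421.2 and 412.4 CPM with NFIB-WT. FCGRT, the Fc receptor of newborns, was at 196.3 and 205.1 CPM with EV, 157.5 and 148.7 CPM with NFIB-ΔIDR, and 224.5 and 216.8 CPM with NFIB-WT. In both, NFIB-ΔIDR lay below EV and NFIB-WT above it. Of 25 genes repressed by the fusion, FN1 rose and IGFBP5 fell, and in the 4-library fit 5 were higher and 2 lower.

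Matrix and adhesion lists were mixed. Of 49 structural matrix genes, 6 were higher and 9 lower in the 4-library fit, with the median at -0.05. The shares over all genes of that fit, 6.85% higher and 7.32% lower, apply to this and the following counts. FBN1, fibrillin, was at 6.82 and 7.77 CPM with EV and 12 and 13.6 CPM with NFIB-ΔIDR, whereas the basement membrane collagen COL4A1 was at 100.2 and 95.5 CPM and at 73.7 and 76.0 CPM. Of 26 integrin and adhesion genes, 2 were higher and 5 lower, and of 36 axon guidance genes 2 were higher, SLIT2 and SEMA3A, and 6 lower, among them the ephrins EFNA1, EFNA5 and EFNB1. Of 21 TGF-beta and BMP genes, BMP2 and ID1 were higher and SMAD3, BMP7, ID2 and ID4 lower. BMP2 was at 25.9 and 27.0 CPM with EV, 40.05 and 42.2 CPM with NFIB-ΔIDR, and 19.3 and 14.8 CPM with NFIB-WT. BMP7 was at 7.37 and 5.02 CPM with EV, 2.71 and 1.77 CPM with NFIB-ΔIDR, and 9.0 and 8.5 CPM with NFIB-WT. The 2 ligands thus moved in opposite directions with NFIB-ΔIDR in the 4-library fit. Of 27 Wnt genes DKK1, a secreted antagonist, was higher and WNT5A, FZD3, FZD4 and AXIN2 were lower.

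Of 65 cytosolic ribosomal protein genes, 3 were higher and 23 lower in the 4-library fit, with a median log2 fold change of -0.12. In 6 libraries 0 passed in edgeR, with 3 higher and 9 lower at an unadjusted p under 0.05, and DESeq2 called 1 higher. RPS29 was at 198.9 and 193.9 CPM with EV and 153.0 and 154.6 CPM with NFIB-ΔIDR, whereas RPS16 was at 85.4 and 93.6 CPM and at 120.1 and 132.3 CPM. Ribosomal protein genes have many pseudogene copies. Of 49 replication-dependent histone genes, 7 were higher and 21 lower, and HIST1H2AL and HIST1H2BN rose and HIST1H3A fell in 6 libraries as well. Of 39 genes of oxidative phosphorylation 2 were higher and 7 lower in the 4-library fit, next to 6.85% and 7.32% of all genes. Of 25 S phase genes 1 was higher and 3 lower, and of 25 G2 and M phase genes 1 was higher and 2 lower. Of 24 glycolysis and hypoxia genes NDRG1 was higher and TPI1, GAPDH, PGK1 and VEGFA lower. Of 22 genes of the ATF4 and unfolded protein responses 4 were higher, among them the amino acid genes ASNS and SLC3A2, and 4 lower, among them XBP1. Of 14 Notch genes and 23 HOX genes 0 passed in either fit by edgeR, DESeq2 or voom. At an unadjusted p under 0.05 in the 6-library edgeR fit 0 Notch genes differed, and 1 HOX gene was higher and 3 lower. In the 4-library edgeR fit 2 Notch genes were lower at an unadjusted p under 0.05, and 2 HOX genes were higher and 5 lower.

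**Figure D5:**
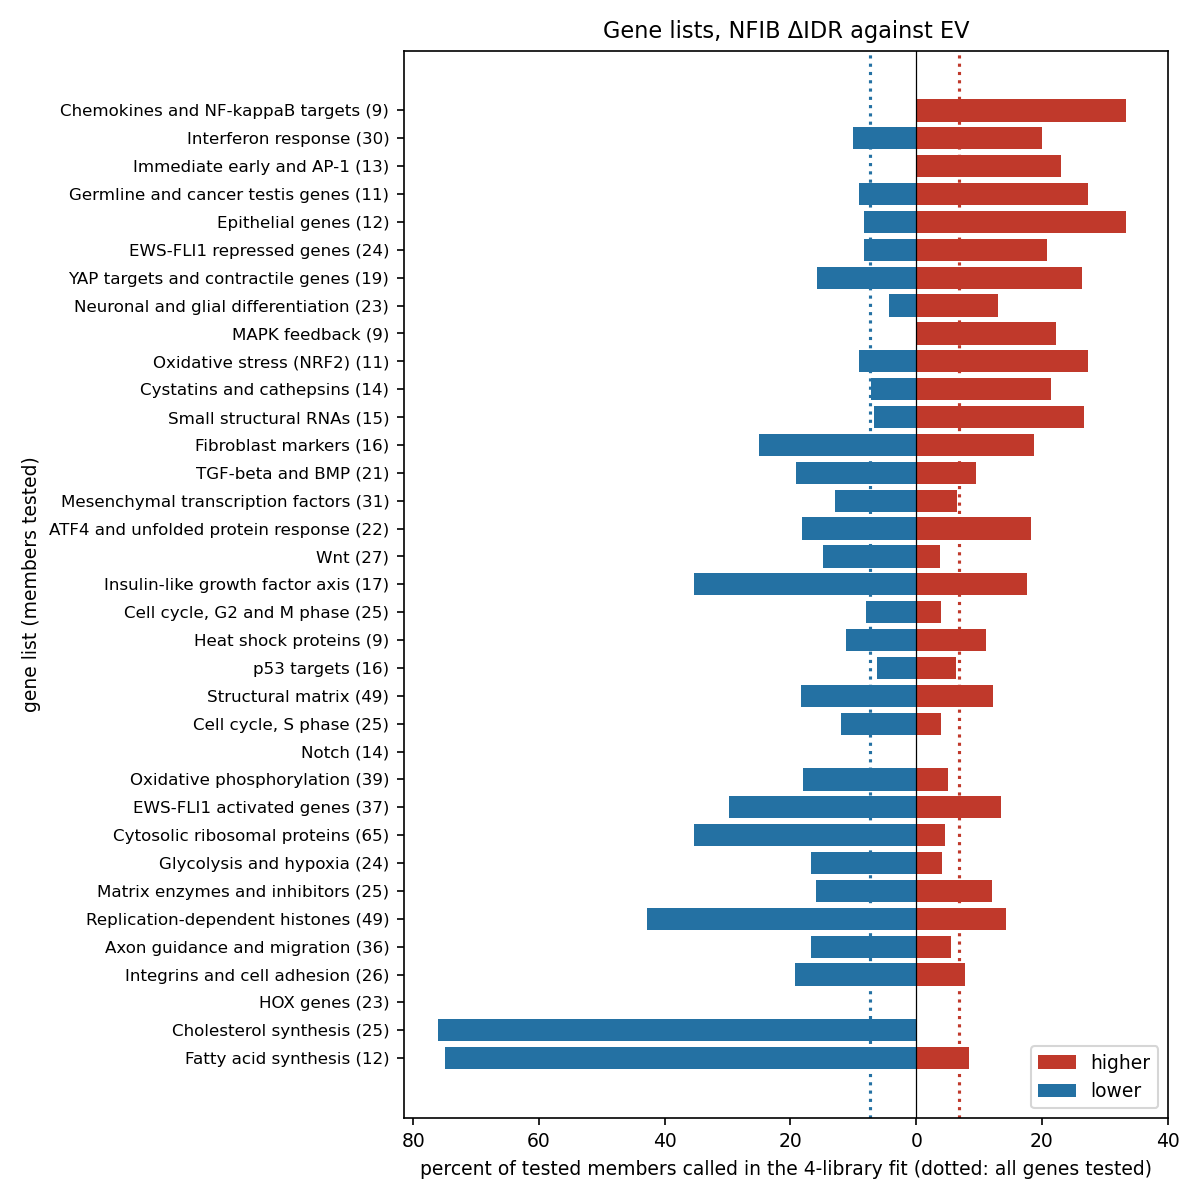
Percent of the tested members of 35 gene lists that were higher (red, right) or lower (blue, left) with NFIB-ΔIDR than with EV in the 4-library fit, with the number tested in parentheses and lists ordered by median log2 fold change. Dotted lines mark all genes tested (6.85% and 7.32%), and the lists of cholesterol and fatty acid synthesis extend furthest to the left.

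Of the genes that carry the identity of the line, NKX2-2, a target of EWS-FLI1, was at 37.1 and 33.6 CPM with EV and 35.0 and 32.2 CPM with NFIB-ΔIDR, and NR0B1 at 23.2 and 26.9 CPM and at 20.4 and 21.7 CPM. CCND1 was at 1261 and 1254 CPM and at 1202 and 1163 CPM, and none of these 3 passed in either fit. The other members of this list of 5 passed in the 4-library fit, with STEAP1 higher (log2 change 0.25, edgeR adjusted p = 0.000375) and PRKCB lower (log2 change -0.25, edgeR adjusted p = 0.000101). Of 12 endothelial markers 4 were abundant enough to test. In either fit 0 passed by edgeR or by DESeq2, which gave an adjusted p for 1 of them. At an unadjusted p under 0.05 edgeR had 0 in either fit, whereas voom had 1 higher in each. Of 14 immune cell markers 2 were tested. Among these, PTPRC, expressed in this line, was at 257.1 and 257.0 CPM with EV and 282.2 and 312.1 CPM with NFIB-ΔIDR. PTPRC was higher in the 4-library fit (log2 change 0.21, edgeR adjusted p = 0.00458). Summed, immune markers were at 264.1 and 263.6 CPM with EV and 290.6 and 320.6 CPM with NFIB-ΔIDR, nearly all of it PTPRC, and endothelial markers at 15.6 to 20.1 CPM. Of 16 fibroblast markers, COL5A1, COL6A3 and PDGFRA were higher and COL1A2, DCN, LUM and THY1 lower in the 4-library fit, with sums of 792.7 and 813.7 CPM with EV and 757.8 and 748.3 CPM with NFIB-ΔIDR. The part of other cells in any result was not tested. Fewer cells of a kind and less RNA per cell cannot be told apart in these bulk libraries.

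More genes had at least 1 count with NFIB-ΔIDR, 19591 and 19126, than with EV, 18740 and 18703, or NFIB-WT, 18562 and 18632, although the NFIB-ΔIDR libraries were not the deepest. The 9103 genes too low to test took 0.262% and 0.250% of the counts with NFIB-ΔIDR, next to 0.212% and 0.195% with EV and 0.213% and 0.198% with NFIB-WT. The median log2 fold change was -0.09 for the 66 tested genes under 1 CPM, 0.15 for those of 1 to 2 CPM and -0.04 for those over 200 CPM. The source of these counts was not tested. Genes with at most 1 count over both EV libraries were ranked by their NFIB-ΔIDR counts, and the top 5 are given. Their low EV and high NFIB-ΔIDR counts were thus fixed by the choice. HSD11B1, which activates cortisol, had 0 and 0 counts with EV, 9 and 5 with NFIB-ΔIDR, and 0 and 1 with NFIB-WT. CDH19, a cadherin of glial cells, had 0 and 1 counts with EV and 10 and 2 with NFIB-ΔIDR, and FOXJ1, the master factor of motile cilia, had 1 and 0 against 9 and 2. CFHR5 and the small RNA SNORA46 had 1 count over both EV libraries and 11 and 12 over both NFIB-ΔIDR libraries. None of these 5 was abundant enough for a test.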

How the data were processed

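RNA was measured in 6 libraries of SKNMC cells, 2 each with EV, NFIB-ΔIDR and NFIB-WT, prepared with the CORALL total RNA kit and sequenced on a NextSeq 500. The authors deposited raw counts of reads per RefSeq gene, made with CASAVA 2.19, STAR 2.4.0h (hg19) and featureCounts, per the submitters' processing notes. For strand, molecular identifiers and multiply mapped reads, the handling was not given in the sources used here. Each library held 6664231 to 8465572 counts, and counting error is the lower limit of the spread.

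Genes passing filterByExpr with a count of 10 and a total of 15 as minimums were normalized by TMM, and tests used edgeR 4.0.16 in R 4.3.3 (quasi-likelihood test, adjusted p under 0.05), once in all 6 libraries with a term per group and once in the 4 libraries of EV and NFIB-ΔIDR. DESeq2 1.42.0, voom in limma 3.58.1, other scalings and filters, left-out libraries, and a correction for GC content and length added after seeing the data (span 0.3, GC known for 96.57% of genes) were alternatives. The methods of the study name DESeq2 with a fold of 1.5, and whether its P was adjusted is not stated. The scripts were tested on simulated data. Deviations of libraries with the same replicate number had correlations of 0.016 (EV and NFIB-ΔIDR), 0.15 (EV and NFIB-WT) and 0.054 (NFIB-ΔIDR and NFIB-WT). These were low, and the libraries are not known to be paired, so the main fits did not pair them.

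Gene coordinates are from GENCODE on hg19, which matched 20494 of 22604 genes. Named genes were NFIB, CSTA, CXCL10 and IGFBP5, and the 12 largest changes in each direction that passed in both fits. The latter also had to have EV and NFIB-ΔIDR libraries that did not overlap. Further ones were the 5 most abundant of these calls in each direction and up to 4 genes of smallest p in each gene list. The 6 largest changes in each direction of the 4-library fit alone and the genes on either side of the threshold were added. So were 5 genes nearly without counts with EV, taken for the highest NFIB-ΔIDR counts. Other genes are named as examples of the calls and were chosen after their values were seen. The comparison, members and lists were chosen with earlier results of these data known. Figures were drawn with matplotlib 3.10.9. Some genes of the lists are counted with them and are not reported here by name.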

Additional observations from a re-analysis of the deposited data

Results flagged for a closer look

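Of the 33 genes named for their markers, size of change or abundance, 10 lay on opposite sides of both EV libraries with the 2 constructs and also differed between the constructs in edgeR's direct test. Of these, 3 were higher with NFIB-ΔIDR than with NFIB-WT, namely CSTA (log2 difference 3.018), LRRC37A11P (2.884) and MFAP1 (0.8397). The other 7 were lower, namely IGFBP5 (log2 difference -2.521), IFI44L (-2.514), METTL7A (-2.373), HIF3A (-2.1), ARHGEF17 (-1.63), HIST1H3A (-1.356) and SCD (-0.777). The adjusted p of these differences was below 0.05 for each gene. NFIB-WT itself differed from EV in edgeR for IGFBP5, IFI44L and METTL7A alone (adjusted p = 0.000348, 0.0253 and 0.0253). For the rest it did not pass, with an edgeR adjusted p of 0.153 for CSTA, 0.816 for LRRC37A11P and 0.717 for MFAP1. HIF3A, HIST1H3A, ARHGEF17 and SCD had 0.326, 0.363, 0.400 and 0.475. A change with NFIB-WT away from EV is thus not shown for these genes. The 33 genes were chosen for differing between NFIB-ΔIDR and EV, which fixed the NFIB-ΔIDR side beforehand. The share of all tested genes with this pattern was not counted. Genes outside the 33, such as SLIT2 and GYG2, also had EV between the constructs and differed in the direct test. LRRC37A11P and HIST1H3A have near-identical relatives whose reads may be counted with them. Groups of 2 libraries are too small to test for a library that stands apart.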

How the results depend on the processing

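All 88 genes of the 6-library fit kept their direction under every alternative that gave them a value. Their EV and NFIB-ΔIDR libraries did not overlap, so leaving out 1 library could hardly have reversed a direction. The counts of genes higher and lower moved by more than 1.5 times from 40 and 48 under these settings: 276 and 274 with no low-count filter, 589 and 541 with voom and a weight for each group, 910 and 973 in the fit of 4 libraries, 93 and 101 with the correction for GC content and length, 417 and 227 at an unadjusted p under 0.05 with a 1.5-fold minimum, 180 and 121 with those thresholds in DESeq2, and 4 and 5 at an adjusted p under 0.01. A replicate block gave 120 and 121, and 1144 and 1304 in the 4-library fit, but the libraries share only a number and are not known to be paired. Leaving out 1 library gave 2 to 892 higher and 2 to 977 lower. The split shifted from 45.5% higher to 33.7% with DESeq2 (31 and 61) and to 55.4% with library totals alone (51 and 41). In the 4-library fit, 910 and 973 became 153 and 276 with DESeq2, 472 and 240 at an unadjusted p under 0.05 with a 1.5-fold minimum, 169 and 110 with those thresholds in DESeq2, 491 and 570 at an adjusted p under 0.01, and 438 to 580 and 437 to 706 with 1 library left out. Against NFIB-WT, 701 and 745 became 322 and 358 in a fit of those 4 libraries alone. SCARNA2 changed sign, from a log2 change of 0.21 in the 4-library fit to -0.00356 without NFIB-ΔIDR replicate 1, with 0.39 without NFIB-ΔIDR replicate 2. The causes of these shifts were not tested, apart from the thresholds and the smaller number of libraries. With 2 libraries per group, changes of low genes are limited by counting error.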
